A study of Oryza sativa with 16 samples.

Results

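The bulked inbred lines of a rice cross were compared with the mid-parent level, the mean of the cross's parents, in leaf RNA. The comparison used all 16 arrays of the series, 8 from bulks of recombinant inbred lines and 8 from the parents. For each probe set the mean of both bulk groups minus the mean of both parent groups was taken on the log2(intensity + 1) scale, and each bulk was then set against each parent in turn.

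The parents were Pusa 1121, an aromatic basmati variety, and Pusa 1342, a non-aromatic variety. The aromatic bulk combined 6 highly aromatic recombinant inbred lines, and the non-aromatic bulk combined 6 non-aromatic ones. Each of the 4 groups had 4 arrays that the labels call biological replicates. All plants were field-grown and untreated, and leaves were taken about 25 days after seedlings had been transplanted. RNA was hybridised to the Affymetrix rice GeneChip, whose short probes are grouped into probe sets that each report 1 transcript as an intensity. The lines of each bulk were chosen by scent and were not a random sample of the cross. The labels do not say whether the replicates came from separate plants or pools, so the p-values rest on array-to-array spread that may be technical. Nor do the p-values measure how far a bulk would vary between different choices of 6 lines.

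A recombinant inbred line is fixed by repeated selfing and carries at each locus the allele of one parent or the other. Where alleles act independently, the average over unselected lines lies near the mid-parent level taken on the linear scale. The mid-parent level used here was a mean of log2 values, which is below the linear mean wherever the parents differ. Calls on both scales are compared at the end of these results. Lines that lie beyond both parents are called transgressive, a pattern long described for many traits of rice crosses, yield and plant height among them.

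Of the 57381 probe sets on the array, 57194 were not controls and were tested, and 22436 of them had 1 listed gene. The genes they covered numbered 17905, taking the brightest probe set of each, and 2472 of these had a published name among their synonyms. The distribution of intensities was identical on every array, with a median of 64.2 and an upper quartile of 434. Arrays of the same group correlated at a mean r of 0.925 across probe sets, and arrays of a bulk and a parent at 0.894. Leaf genes were bright, and summed over 11 photosynthesis genes the intensity was between 241338 and 266346 on every array. The 16 floral marker genes summed to between 4356 and 4878 in the non-aromatic parent and between 1913 and 2675 in the other groups, and the 8 root marker genes to between 1524 and 3856, with the root genes lowest in the aromatic parent and highest in the non-aromatic bulk. Of the 8 root genes 3 rose (37.5%) and 1 fell (12.5%) in the bulks, and of the 16 floral genes 1 rose and 1 fell (6.25% each). Among all genes 20.7% rose and 19.3% fell in the test described below. In RNA from whole leaves, fewer cells of a type and less RNA per cell cannot be told apart.

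Controls differed between the groups. The poly-A controls, bacterial transcripts added to the RNA, were at 738 to 773 in the aromatic bulk and at 740 to 759 in the non-aromatic parent, but at 1392 to 1441 in the non-aromatic bulk and at 1351 to 1411 in the aromatic parent. They balanced in the pooled contrast, at a log2 difference of 0.02, but not for a single bulk against mid-parent, at -0.43 for the aromatic and 0.47 for the non-aromatic bulk. The ratio of the 3′ to the 5′ probe set of actin, a measure of RNA integrity and labelling, was higher in the bulks by 0.50 on the log2 scale, with the lowest ratios, 3.04 to 3.94, in the non-aromatic parent. The hybridisation controls, added after labelling, differed as well, by 0.29 in the pooled contrast and by 0.09 and 0.49 for the aromatic and the non-aromatic bulk against mid-parent. The part of these controls in the results was not tested.

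Many leaf transcripts in the bulks departed from the mid-parent level, in nearly equal numbers upwards and downwards, and most departures were small. In limma's moderated test with Benjamini-Hochberg adjustment over all tested probe sets, at an adjusted p under 0.05, 13733 probe sets passed (24.0%), 6703 higher (11.7%) and 7030 lower (12.3%). By gene, 7159 passed (40.0%), 3712 of them higher (20.7%) and 3447 lower (19.3%). The median size among the called genes was 0.43 on the log2 scale, and 1084 genes passed and differed by at least 2-fold. Calls were more frequent among the 13549 genes with a mean intensity of at least 100, at 49.9%, than among the 4356 dimmer genes, at 9.27%. The arrays varied by a median residual SD of 0.16 in probe sets with a mean of at least 100 and of 1.04 in dimmer ones.

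A departure from the mean of the parents can arise inside their range or beyond it. A bulk was counted as outside when it passed the test against both parents in the same direction, and as between when it passed against both in opposite directions. The aromatic bulk lay above both parents in 1249 genes (6.98%), below both in 1095 (6.12%) and between them in 1251 (6.99%). The non-aromatic bulk lay above both in 1463 genes (8.17%), below both in 1574 (8.79%) and between them in 1237 (6.91%). By probe set, the aromatic bulk was outside the parents in 4146 (7.25%) and the non-aromatic bulk in 6011 (10.5%). Against mid-parent alone, 11649 probe sets passed for the aromatic bulk (20.4%) and 14314 for the non-aromatic bulk (25.0%). The difference between the bulks in these counts was not tested, and the poly-A controls differ between the bulks in the way given above.

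**Figure D1:**
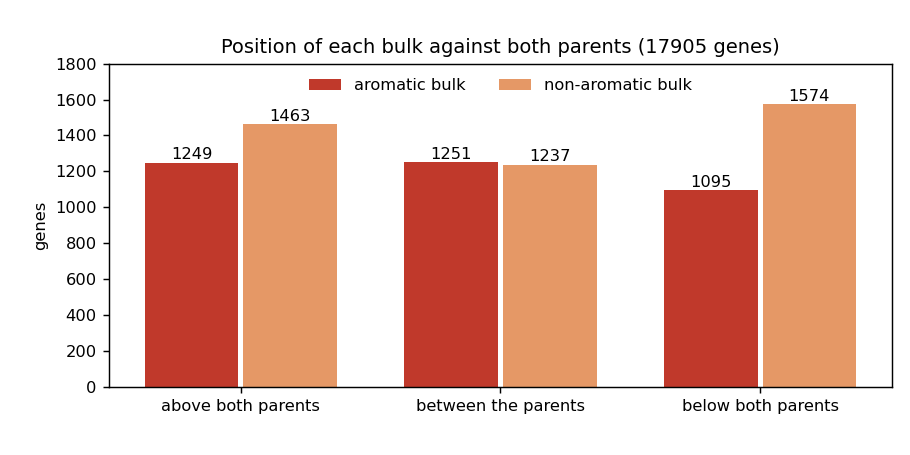
Number of genes (vertical axis) in which each bulk lay above both parents, between them or below both, with a call against each parent by limma. The between class is of similar size in both bulks, at 1251 and 1237 genes, and the non-aromatic bulk has more genes below both parents, at 1574 against 1095.

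Of the 3712 genes called higher in the pooled contrast, 577 had both bulks above both parents (15.5%), 561 had the aromatic bulk alone above both, 742 had the non-aromatic bulk alone above both, and 1832 had neither (49.4%). Of the 3447 genes called lower, 401 had both bulks below both parents (11.6%), 562 had the aromatic bulk alone and 973 the non-aromatic bulk alone, and 1511 had neither (43.8%). In 38 genes the aromatic bulk was above and the non-aromatic bulk below both parents, and in 32 genes the reverse held. The parents themselves differed past the threshold in 270 of the 577 genes with both bulks above and in 148 of the 401 with both below (46.8% and 36.9%), against 8103 of all 17905 genes (45.3%). Every array counted, all 8 bulk arrays exceeded all 8 parent arrays in 815 genes (4.55%) and lay below them in 609 genes (3.40%). By chromosome, the share of measured genes with both bulks on the same side outside the parents ran from 4.41% on chromosome 12 to 8.11% on chromosome 9, where 49 genes were above and 29 below.

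The 16 arrays can also be split into a pair of comparisons that share no array, an option added after the data had been seen. When each bulk was set against the parent of its own scent class, 1826 probe sets were higher and 1668 lower in both comparisons, while 2170 passed in opposite directions. With each bulk set against the parent of like poly-A control level, 1539 were higher and 1452 lower in both, and 4573 passed in opposite directions.

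Where the parents differed at least 4-fold and the brighter parent reached 500, each bulk lay near the midpoint on a linear scale where the parent of its own scent class was the brighter one, and nearer the dimmer parent where that was its own. In 259 such genes with the aromatic parent higher, the aromatic bulk lay at a median of 49.9% of the way from the dimmer to the brighter parent (quartiles 20.0% and 79.9%) and the non-aromatic bulk at 29.6% (8.20% and 61.1%). In 276 genes with the non-aromatic parent higher, the aromatic bulk lay at a median of 20.3% (6.40% and 63.0%) and the non-aromatic bulk at 51.8% (23.4% and 88.9%). These are descriptions over genes that share the same arrays, with no test. The brighter parent was exceeded by the aromatic bulk in 35 and 22 genes of these sets and by the non-aromatic bulk in 27 and 51. The aromatic bulk lay below the dimmer parent in 14 and 37 genes and the non-aromatic bulk in 33 and 17.

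**Figure D2:**
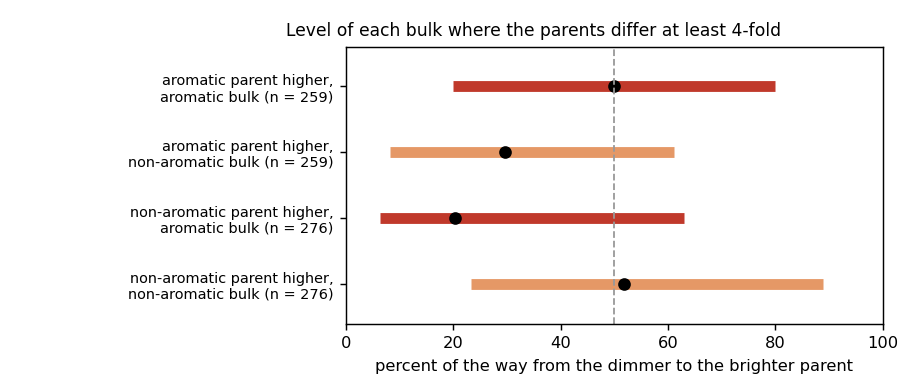
Level of each bulk as a percent of the way from the dimmer to the brighter parent (horizontal axis, linear intensities) in genes whose parents differ at least 4-fold. Points are medians over genes and bars run from the lower to the upper quartile, with medians of 49.9% and 51.8% for each bulk where its own parent is brighter, and of 29.6% and 20.3% where the other parent is.

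The counts of gene lists given from here on stand against 20.7% of all genes higher and 19.3% lower, and a list with shares near these does not stand out. Among the genes with a published name, from which the lists were drawn, 23.4% were higher and 20.7% lower. Calls were more frequent in bright genes, as given above, so lists of bright genes have higher shares to be read against. Of 51 genes of cellulose, lignin and phenylpropanoid synthesis 18 fell (35.3%), 9 rose (17.6%) and 24 did not pass, with a median of -0.24 against -0.01 over all genes. The laccase genes LAC7 and LAC4 were not in this list and were named for the size of their falls. LAC7 (LOC4324802, chromosome 1) belongs to a family of copper oxidases with members that polymerise lignin in Arabidopsis. It was at 507, 612, 597 and 549 in the aromatic bulk and at 552, 568, 423 and 519 in the non-aromatic bulk. It was at 4073, 3465, 3817 and 4111 in the aromatic parent, against the other parent at 4294, 4620, 4430 and 4069. All bulk arrays lay far below all parent arrays, with both parents at a similar level. A gap between all bulk and all parent arrays was required by the rule that named the largest rises and falls. The log2 difference from mid-parent was -2.93 (SE 0.07, adjusted p = 2.62e-11), and on the linear scale the mid-parent level was 7.60 times that of the bulks. LAC4 was dimmer and lower in the same way, at means of 18.0 and 6.60 in the bulks against 70.8 and 160 in the parents (log2 -3.35, adjusted p = 3.13e-06).

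CESA7, a cellulose synthase subunit of secondary walls, was at 140, 116, 165 and 168 in the aromatic bulk, 84.1, 121, 76.0 and 120 in the non-aromatic bulk, 386, 517, 458 and 388 in the aromatic parent and 562, 416, 592 and 421 in the non-aromatic parent. No bulk array reached a parent array, as the naming rule required, and the log2 difference was -1.94 (SE 0.14, adjusted p = 1.44e-07). All 9 measured genes named CESA fell, a subgroup singled out after its values were seen, from -0.69 for CESA3 to -3.32 for CESA2, with a median of -1.20. The other secondary-wall subunits CESA4 and CESA9 fell by 1.20 (adjusted p = 0.0241) and 1.55 (adjusted p = 0.00719), and the primary-wall subunits CESA1 and CESA8 by 1.17 and 0.90. CESA5 and CESA6 fell by 1.24 and 0.81. The aromatic bulk was below both parents in 6 of the 9 and the non-aromatic bulk in 4, against 6.12% and 8.79% of all genes. CESA2 and CESA9 were dim, and 1 non-aromatic bulk array stood at 87.2 for CESA2 while the others were at or below 18.7. Further probe sets of CESA2 (log2 -0.64, adjusted p = 0.41) and CESA1 (log2 -1.33, adjusted p = 0.070) did not pass. Those of CESA3 and CESA4 passed in the same direction, at -1.42 and -1.79. BC1 (LOC4333114), a COBRA-like protein of cellulose assembly whose loss makes rice culms brittle, had means of 44.1 and 45.7 in the bulks and of 145 and 195 in the parents (log2 -2.19, adjusted p = 0.00119).

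PAL (LOC4330034), phenylalanine ammonia-lyase, the entry step of the phenylpropanoid pathway, fell by 0.87 (adjusted p = 5.09e-08). It was at 3557 ± 170 (SD, n = 4) in the aromatic bulk, below both parents at 7682 ± 665 and 15607 ± 742, while the non-aromatic bulk lay between them at 10039 ± 222. Against mid-parent the aromatic bulk differed by -1.62 (adjusted p = 1.56e-09) and the non-aromatic bulk by -0.12 (adjusted p = 0.22). Of 4 further probe sets of PAL, 3 passed in the same direction. The other had a pooled difference of -0.23 (adjusted p = 0.075). In it the aromatic bulk, at 254, was below both parents, at 638 and 503, and the non-aromatic bulk, at 922, above both. Other members of the list rose. CAD2, cinnamyl alcohol dehydrogenase of the monolignol pathway, rose by 0.69 (adjusted p = 2.44e-07), and both bulks, at 14257 and 15323, were near the aromatic parent at 14599 while the non-aromatic parent was at 5746. The COBRA-like gene BC1L9 rose by 1.50 on the log2 scale (adjusted p = 1.13e-07), with 1191 and 729 in the bulks, and 1596 and 68.6 in the aromatic and non-aromatic parent. Both bulk means thus lay between the parent means. In its further probe set, with a log2 difference of 1.21 (adjusted p = 0.0234), the bulks at 251 and 177 also lay between the parents at 470 and 21.7.

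TIP4-1 (LOC4338163, chromosome 5), a water channel of the vacuolar membrane, was at 1053, 1106, 1225 and 1457 in the aromatic bulk and at 910, 895, 936 and 828 in the non-aromatic bulk. The aromatic parent stood at 15650, 15280, 14730 and 14960 and the non-aromatic parent at 1864, 1694, 1873 and 1785. The parents differed widely, and both bulks were lower than the dimmer parent on every array (log2 -2.34, SE 0.07, adjusted p = 5.33e-11). The plasma-membrane aquaporin PIP2-7 fell by 0.64 and PIP2-4 rose by 1.11. Among all 26 aquaporin genes 7 fell (26.9%) and 6 rose (23.1%), near the shares of all genes. The sugar transporter SWEET4 had means of 1521 and 2738 in the bulks against 3981 and 5153 in the parents (log2 -1.15, adjusted p = 1.67e-08). The potassium transporter HAK25 had 1084 and 970 against 3030 and 1528 (log2 -1.07, adjusted p = 3.78e-08). All bulk arrays of both genes lay below all parent arrays.

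Pi21 (LOC4335725, chromosome 4) encodes a proline-containing protein whose resistance allele is a recessive source of blast resistance. It was at 1303, 1402, 1330 and 1260 in the aromatic bulk, at 1007, 1039, 935 and 1038 in the non-aromatic bulk, at 2895, 3280, 2923 and 3223 in the aromatic parent and at 4601, 4913, 4810 and 4972 in the non-aromatic parent. The groups did not overlap (log2 -1.74, SE 0.05, adjusted p = 5.94e-11), and its other probe set fell as well, by 1.61. APY3, an apyrase gene, fell by 1.28 (adjusted p = 6.24e-10), with both bulks below both parents. The published names R1623, OrysaZxb, AtMAP70-4 and GER5, whose roles are not described here, belonged to genes that fell by 1.88, 1.47, 1.79 and 1.58. ILL8, of the family of enzymes that release auxin from amino acid conjugates, fell by 1.85.

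Of 59 auxin genes, 15 fell (25.4%), 6 rose (10.2%) and 38 did not pass (median -0.11). The auxin repressor gene IAA1 (LOC4334069) was at 1437, 1507, 1592 and 1610 in the aromatic bulk, at 2692, 2620, 2647 and 2482 in the non-aromatic bulk and between 3603 and 4538 on the parent arrays. The mid-parent level was 1.94 times that of the bulks on the linear scale (adjusted p = 5.53e-09 on the log2 scale), with no overlap, and IAA15 fell by 0.77. The 60 genes of the homeobox, YABBY, SPL and GRF families had 11 that fell (18.3%) and 3 that rose (5%), while 46 did not pass, with SPL6 at -0.87, SPL15 at -0.86 and YAB1 at -0.78, all with both bulks below both parents. A further probe set of SPL6, at means of 991 to 1233, had 0.11 (adjusted p = 0.45), with neither bulk separated from both parents. On the linear scale 18 fell, and 5 to 7 rose with bright probe sets only, a variance trend or probe set means. YAB1 did not pass when the mean of its probe sets was used (log2 -0.42, adjusted p = 0.36). Of the 17 JAZ repressors of jasmonate response, 5 fell and 5 rose (29.4% each). JAZ8 had 836 ± 39.3 and 521 ± 54.2 in the bulks against 1281 ± 123 and 1874 ± 52.4 in the parents (SD, n = 4, log2 -1.23, adjusted p = 1.11e-08), and JAZ12 fell by 0.61.

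Of 7 circadian clock genes 5 fell (71.4%), GI by 0.58, PRR95 by 0.53 and PRR73 by 0.30 among them, and CCA1 alone rose. The non-aromatic bulk was below both parents in 4 of the 7 and the aromatic bulk in 0, against 8.79% and 6.12% of all genes. GI and PRR95 passed against mid-parent in each bulk. For PRR73 the aromatic bulk, at 17019, did not depart from mid-parent (log2 -0.01, adjusted p = 0.92), and the non-aromatic bulk was at 11384. GI, GIGANTEA, links the clock to flowering time. It was at 12250, 12870, 12240 and 12270 in the aromatic bulk, at 9804, 9068, 9719 and 8810 in the non-aromatic bulk, at 17240, 18560, 16880 and 18970 in the aromatic parent and at 14520, 15420, 13380 and 14240 in the non-aromatic parent. The bulk arrays were all lower, by 0.58 (SE 0.05, adjusted p = 1.94e-06), although the aromatic bulk did not pass against each parent. The labels give no time of day for any sample. Of 24 genes of silencing and DNA methylation 9 fell (37.5%) and 4 rose (16.7%), with a median of -0.24. AGO4B, an argonaute of RNA-directed DNA methylation, fell by 0.57. DCL2A, a Dicer-like gene, rose by 1.07, with 2000, 2010, 1984 and 2029 in the aromatic bulk, 1542, 1639, 1729 and 1520 in the non-aromatic bulk and between 683 and 993 in the parents. AGO18 rose by 0.61, but not when the mean of its probe sets was used (log2 0.05, adjusted p = 0.93).

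**Figure D3:**
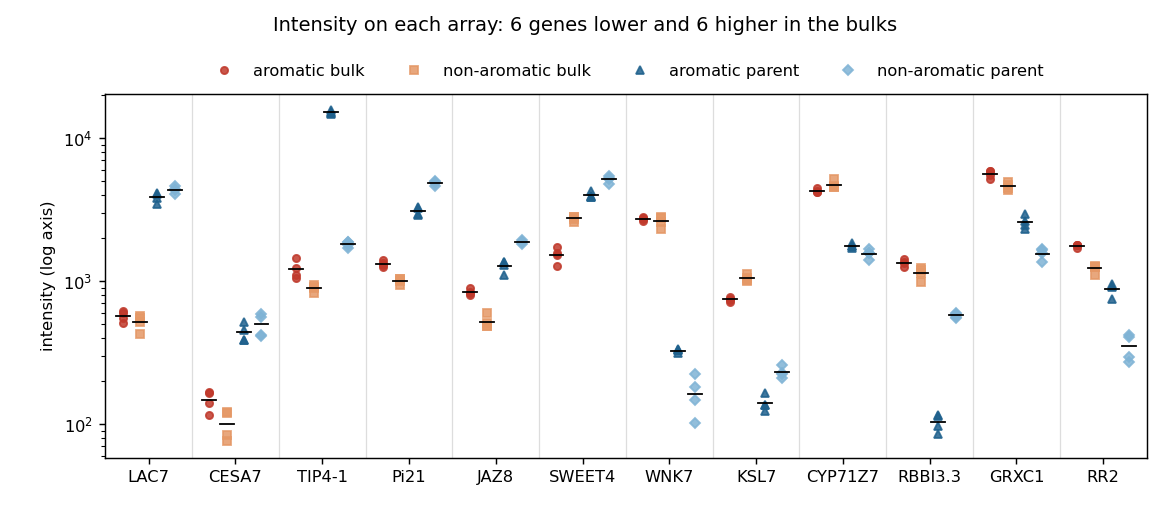
Intensity on each array (vertical log axis) of 6 genes lower and 6 genes higher in the bulks, with 1 point per array and a line at each group's mean. No bulk array overlaps a parent array in these 12 genes, which the naming rule for the largest rises and falls required of its genes. LAC7 has bulk means of 566 and 515 against 3866 and 4353, and RR2 has 1761 and 1226 against 882 and 349.

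Of 22 genes of terpenoid phytoalexin and gibberellin precursor synthesis, 11 rose (50%), 2 fell (9.09%) and 9 did not pass (median 0.36). The names sought for this list included LIS, linalool synthase, which makes a monoterpene. The non-aromatic bulk was above both parents in 9 of them and the aromatic bulk in 4, against 8.17% and 6.98% of all genes. Rice makes phytocassanes and momilactones from a common diterpene precursor with enzymes encoded in clusters on chromosomes 2 and 4. KSL7 (LOC4329724, chromosome 2), the diterpene synthase that makes the phytocassane precursor, was at 776, 749, 739 and 713 in the aromatic bulk and at 1015, 1048, 1000 and 1112 in the non-aromatic bulk. The aromatic parent was at 135, 124, 137 and 165 and the non-aromatic parent at 208, 223, 227 and 260. Both bulks were far above both parents (log2 2.30, SE 0.07, adjusted p = 5.86e-11), at 4.84 times the mid-parent level on the linear scale, and its other probe set rose by 1.87. CYP71Z7, a cytochrome P450 of the same cluster with 2 genes between it and KSL7 in the gene order, was at 4275 ± 119 and 4722 ± 327 in the bulks and at 1767 ± 62.1 and 1553 ± 108 in the parents (SD, n = 4, log2 1.44, adjusted p = 4.23e-10).

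The neighbouring momilactone genes on chromosome 4 followed another pattern. CPS4, the diphosphate synthase of the pathway, was at 952, 1080, 1091 and 1117 in the non-aromatic bulk, against 140 to 164 in the aromatic bulk, 125 to 175 in the aromatic and 142 to 181 in the non-aromatic parent. The non-aromatic bulk was above both parents and the aromatic bulk overlapped them (pooled log2 1.37, adjusted p = 4.45e-08). The adjacent CYP99A3 was at 1421 ± 45.9 in the non-aromatic bulk and between 406 and 586 in the means of the other groups (log2 0.69, adjusted p = 4.16e-06). CYP701A9, of the family of kaurene oxidases, rose by 2.68 from dim parent means of 31.5 and 32.3. In the whole list, when replicate 1 or 2 of the aromatic bulk, 1, 2 or 4 of the non-aromatic bulk, 3 or 4 of the aromatic parent, or 1, 2 or 4 of the non-aromatic parent was left out, 1 gene fell in place of 2.

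Among 18 genes of chitinases, protease inhibitors and pathogenesis regulators, 7 rose (38.9%), 1 fell (5.56%) and 10 did not pass (median 0.39). RBBI3.3, a Bowman-Birk trypsin inhibitor, was at 1256, 1337, 1423 and 1355 in the aromatic bulk, at 1185, 1146, 985 and 1233 in the non-aromatic bulk, at 114, 84.8, 116 and 96.1 in the aromatic parent and at 550, 561, 596 and 592 in the non-aromatic parent. Both bulks were above the brighter parent on every array (log2 2.34, adjusted p = 1.10e-10). The gene named pinA, next to RBBI3.3 in the gene order of chromosome 1, rose by 2.27 (adjusted p = 3.51e-11). The chitinase gene Cht11 rose by 0.61 with both bulks above both parents. Cht-1 rose by 0.61 through the non-aromatic bulk alone, at 1114 ± 127 against 292 ± 27.0 in the aromatic bulk, and 349 ± 19.9 and 402 ± 55.6 in the parents.

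Among genes with a published name whose arrays did not overlap, the largest rise was that of WNK7 (LOC4349598, chromosome 11), of the kinase family named for a missing lysine. It was at 2795, 2696, 2622 and 2766 in the aromatic bulk and at 2763, 2596, 2822 and 2312 in the non-aromatic bulk. The aromatic parent was at 335, 329, 311 and 329 and the non-aromatic parent at 147, 102, 223 and 181. The bulks were alike and stood at 10.9 times the mid-parent level on the linear scale (log2 3.55, SE 0.13, adjusted p = 2.33e-10), and its other probe set rose by 3.18. CML24, a calmodulin-like calcium sensor, rose by 2.77 from parent means of 40.9 and 27.6. FTSH6, of a family of chloroplast metalloproteases, rose by 2.84, and salT, a lectin induced by salt, by 1.83, with only the non-aromatic bulk above both parents in each, although both bulks were above them in another probe set of salT. SAP16, of a zinc-finger family linked to stress, rose by 1.44 with both bulks above both parents, but its other probe set had -0.09 (adjusted p = 0.49).

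Of 25 ribosomal protein genes 16 rose (64.0%) and 3 fell (12%), with a median of 0.23. In 12 of the 25 all bulk arrays were above all parent arrays, against 4.55% of all genes. RPS26 was at 4741, 4542, 5038 and 4874 in the aromatic bulk, at 4783, 4753, 4757 and 5029 in the non-aromatic bulk, at 3110, 2970, 3017 and 2849 in the aromatic parent and at 4052, 4289, 4146 and 4206 in the non-aromatic parent. The gap to the nearer parent was small but no array crossed it (log2 0.45, SE 0.05, adjusted p = 5.95e-06). RPS27AA rose by 0.49, and rps20 rose by 0.55, though not with the mean of its probe sets (0.28, adjusted p = 0.18). RPL18 fell by 0.60 through the non-aromatic bulk, at 4195, below both parents at 11435 and 7573. The aromatic bulk, at 8930, did not depart from the mid-parent level of RPL18 (log2 -0.06, adjusted p = 0.70). Of 54 redox genes 24 rose (44.4%), 8 fell (14.8%) and 22 did not pass (median 0.13), and 13 to 15 fell in the fits with bright probe sets only, on the linear scale, or with a variance trend. The glutaredoxin GRXC1 had 5601 ± 351 and 4620 ± 264 in the bulks against 2587 ± 268 and 1553 ± 144 in the parents (SD, n = 4, log2 1.35, adjusted p = 7.50e-09). The thioredoxins OsTrx01 and OsTDX rose by 0.97 and 0.67 with both bulks above both parents, and the ascorbate peroxidase APX5 rose by 0.98 with both bulks between them.

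Cytokinin genes had 10 rises (34.5%) and 7 falls (24.1%) among 29. The type-A response regulators, which damp cytokinin signalling, included RR2, at 1776, 1698, 1782 and 1788 in the aromatic bulk, 1100, 1260, 1260 and 1283 in the non-aromatic bulk, 914, 946, 918 and 750 in the aromatic parent and 421, 406, 296 and 272 in the non-aromatic parent. The bulks were above both parents on every array (log2 1.42, SE 0.10, adjusted p = 1.15e-07). RR4 rose by 0.86 and the cytokinin oxidase CKX4 by 0.56. The ammonium transporter AMT1 rose by 1.19 (adjusted p = 1.73e-09), with the aromatic bulk at 6286 between the parents at 1795 and 8728 and the non-aromatic bulk at 12947 above both. Photosynthesis genes had 5 rises (45.5%) and no fall among 11 by limma, and 1 fall on the linear scale or with a variance trend. The rises were small, 0.16 for RCAA1, rubisco activase, 0.23 for the photosystem subunit PSAG and 0.36 for PPDKB, pyruvate orthophosphate dikinase. RCAA1 stood at the top of the intensity scale, where several arrays shared the value 43970.

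The genes of scent, amine, aldehyde and proline metabolism had 8 rises (47.1%) and 2 falls (11.8%) among 17 (median 0.09). BADH2, the aldehyde dehydrogenase whose loss of function gives rice its fragrance, was at 417, 351, 326 and 386 in the aromatic bulk, near the aromatic parent at 322, 288, 375 and 410. The non-aromatic bulk was at 809, 683, 687 and 751, between that level and the non-aromatic parent at 2236, 2234, 2218 and 2243. The departure from mid-parent was -0.76 (SE 0.08, adjusted p = 9.09e-06), and no bulk lay outside the parents. ADC1, arginine decarboxylase of polyamine synthesis, lay above both parents in both bulks, at 18930.4 ± 717 and 11785 ± 805 against 8737 ± 339 and 6128 ± 252 (SD, n = 4, log2 1.03, adjusted p = 5.82e-09). Its other, dimmer probe set rose by 0.20, with neither bulk separated from both parents. Adh2, alcohol dehydrogenase, rose by 0.84, and OAT, ornithine aminotransferase, by 0.50, though OAT did not pass with the mean of its probe sets (0.10, adjusted p = 0.20).

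**Figure D4:**
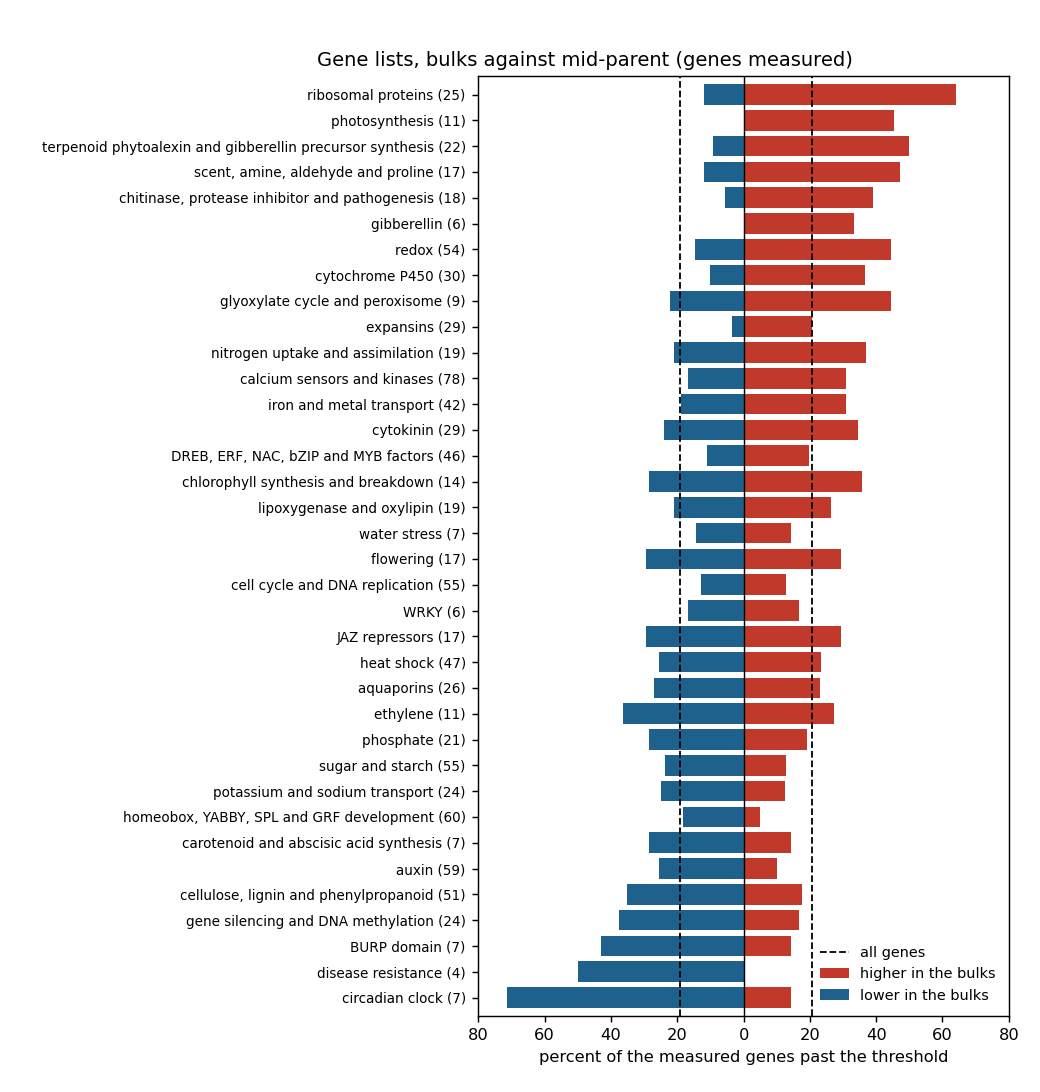
Percent of the measured genes of 36 lists that were higher (right) or lower (left) in the bulks than mid-parent past the threshold, with the number measured in brackets and dashed lines at the shares of all genes, 20.7% and 19.3%. Ribosomal proteins have the largest share higher, 16 of 25, and the circadian clock the largest share lower, 5 of 7; lists of few genes have coarse shares.

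Among genes without a published name whose bulk and parent arrays did not overlap, the largest rises were in genes near the bottom of the scale in both parents. LOC4340998 on chromosome 6 was at 2672, 2523, 2468 and 2472 in the aromatic bulk and at 2170, 2159, 2075 and 2032 in the non-aromatic bulk, against 3.42 to 20.0 in the aromatic and 3.96 to 42.9 in the non-aromatic parent (log2 7.98, SE 0.42, adjusted p = 9.67e-09). A further probe set of LOC4340998 had -0.52 (adjusted p = 0.50). LOC4340976, with 47 genes between them in the gene order, was at 4978 ± 197 and 2205 ± 51.9 in the bulks and at 9.48 ± 10.9 and 28.3 ± 20.3 in the parents (SD, n = 4, log2 7.95, adjusted p = 6.49e-09). On chromosome 11, LOC4350773 was at 623 ± 34.6 and 325 ± 27.5 in the bulks and at 4.67 ± 5.97 and 5.27 ± 6.25 in the parents. LOC4350802, with 36 genes between it and LOC4350773, was at 1637 and 1337 in the bulks and at 25.2 and 18.8 in the parents, a rise of 6.12. Of its further probe sets 1 rose by 5.77 and 1 had 0.23 (adjusted p = 0.64).

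By a rule of level, under 50 in the mean of each parent and at least 200 in the mean of each bulk, 43 probe sets were dim in both parents and bright in both bulks, and they named 9 genes. The reverse, bright in both parents and dim in both bulks, held for 2 probe sets with 1 gene. Of the 9 genes 3 lay on chromosome 6, at places 1478, 1480 and 1528 of its 3022 genes in the gene order, and 3 on chromosome 11, at places 1928, 2121 and 2158 of 2834. The other genes of this kind were LOC9270148 and LOC4350668 on those chromosomes, LOC4339148 on chromosome 5, and LOC4343779 and LOC4344126 on chromosome 7. LOC4350668 was at 812 ± 94.3 and 767 ± 60.2 in the bulks against 26.8 ± 25.1 and 16.9 ± 24.4 in the parents. LOC4339148 was at 656 ± 45.6 and 931 ± 85.4 against 38.5 ± 16.6 and 40.8 ± 11.5. The size of a rise from values near the bottom of the scale depends on the constant added before the log.

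**Figure D5:**
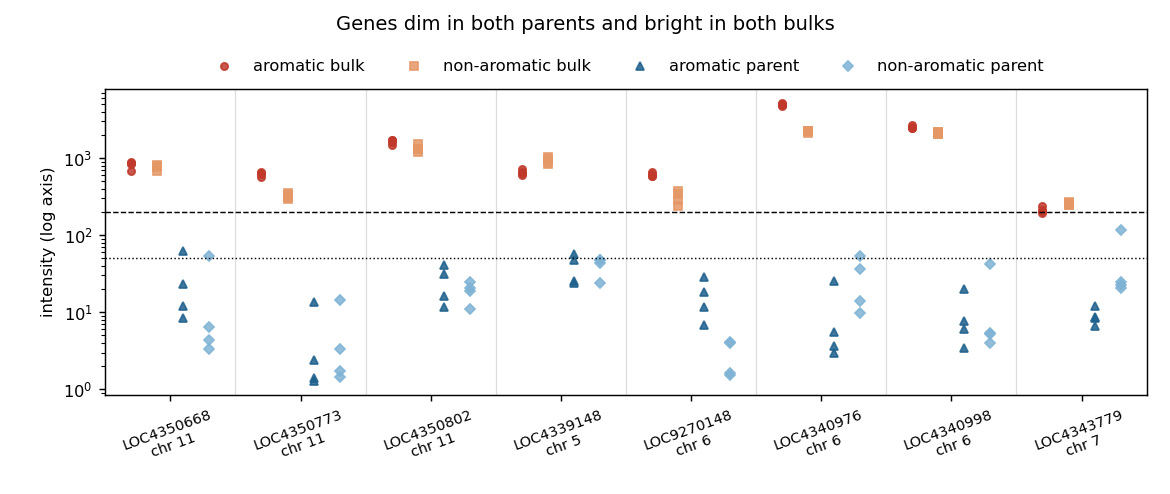
Intensity on each array (vertical log axis) of 8 genes that were dim in both parents and bright in both bulks, with 1 point per array, a dotted line at 50 and a dashed line at 200. LOC4340976 is at 4978 and 2205 in the bulks and at 9.48 and 28.3 in the parents. The ninth gene, LOC4344126, is left out because its brightest probe set did not meet the rule.

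The gene of the reverse kind was LOC4350947 on chromosome 11. It was at 33.7, 15.4, 39.7 and 55.8 in the aromatic bulk and at 0.852, 6.68, 24.6 and 17.8 in the non-aromatic bulk. In contrast, it was at 583, 652, 578 and 717 in the aromatic parent and at 224, 214, 228 and 202 in the non-aromatic parent. The bulks were dim on all arrays and the parents bright on all (log2 -4.40, SE 0.45, adjusted p = 5.73e-06). Among genes without a published name and outside that rule of level, LOC4344941 and LOC4344943, adjacent on chromosome 8, fell by 3.79 and 3.54, from parent means of 635 and 157 and of 499 and 523 to bulk means of 21.6 and 35.8 and of 43.4 and 77.6. LOC4347145 on chromosome 9 fell by 3.22.

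For some genes the mean of the bulks hid opposite departures. BURP2 (LOC4338119), of a plant-specific protein family named for its shared domain, was at 27340, 25540, 25170 and 25170 in the aromatic bulk and at 627, 581, 379 and 312 in the non-aromatic bulk. The aromatic parent stood at 7050, 7861, 6786 and 7795 and the non-aromatic parent at 14910, 14120, 15740 and 15220. The aromatic bulk was above both parents, by 1.30 from mid-parent, and the non-aromatic bulk below both, by -4.52. The pooled difference of -1.61 turned on the linear scale, where the bulks were higher by 1953 intensity units. A further probe set of BURP2 had a pooled difference of -0.11 (adjusted p = 0.70). In it too the aromatic bulk, at 1680, was above both parents, at 419 and 741, and the non-aromatic bulk, at 164, below both. LIS, linalool synthase, a floral and leaf monoterpene enzyme, was at 1667 ± 88.8 in the aromatic bulk but at 33.8 ± 25.1 in the other, against 173 ± 42.2 and 210 ± 24.3 in the parents (SD, n = 4). Its departures were 3.14 and -2.73, and the pooled difference of 0.20 did not pass (adjusted p = 0.68), while on the linear scale the bulks were higher by 659 (adjusted p = 2.29e-12).

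Of 17 flowering genes 5 rose and 5 fell (29.4% each), and 3 rose when replicate 3 of the aromatic bulk was left out or when replicate number was a block. The aromatic bulk was above both parents in 1 and below both in 2, and the non-aromatic bulk in 5 and 3, a difference that was not tested. Among all genes the shares were 6.98% and 6.12% for the aromatic bulk and 8.17% and 8.79% for the non-aromatic bulk. Hd3a, the florigen gene that moves from leaf to shoot tip, was at 286, 280, 276 and 317 in the aromatic bulk and at 1884, 1863, 1972 and 1934 in the non-aromatic bulk, against 179 to 208 in the aromatic and 121 to 212 in the non-aromatic parent. Both bulks were above both parents (log2 2.06, SE 0.09, adjusted p = 2.57e-09), the non-aromatic bulk by far. MADS50, a promoter of flowering, was at 417 ± 12.9 in the non-aromatic bulk, below 1793 ± 46.9 in the aromatic bulk, and below the parents at 1534 ± 35.6 and 1698 ± 74.4 (log2 -0.90, adjusted p = 6.21e-09).

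Where the parents differed strongly, the direction could depend on whether the mid-parent level was taken on the log or the linear scale. EIL1 (LOC4332697), of a family of ethylene signalling factors, was at 12820, 12750, 12860 and 12370 in the aromatic parent. In the non-aromatic parent EIL1 was at 55.8, 61.2, 45.0 and 38.6, and the bulks lay between the parents at 6549 ± 527 and 5249 ± 391 (SD, n = 4). Its log2 difference was 2.87 (adjusted p = 8.51e-11), but on the linear scale the bulks were lower by -475 units, or 0.925 times the mean of the parents. MADS56, a flowering regulator, had bulks at 1465 and 1662 between parents at 31.6 and 5373, with a log2 difference of 1.92 and a linear one of -1139. CCA1, a core clock gene, rose on both scales, by 1.62 on the log2 scale, with the aromatic parent alone low, at 888 ± 72.7, while the bulks were at 8677 ± 151 and 11442 ± 282 and the non-aromatic parent at 11918 ± 1030. BURP17 was at 2861 ± 140 in the non-aromatic parent alone, and its log2 difference of -4.62 left neither bulk outside the parents. Of the 3712 genes called higher on the log2 scale, 3458 were also called higher on the linear scale, 38 were called lower and 216 were not called. Of the 3447 called lower, 3352 were also called lower, 1 was called higher and 94 were not called.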

How the data were processed

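The deposited values are linear intensities, with 1 value for each probe set on each array. Per the submitters' processing notes GCOS 1.2 and RMA were used, and the scale was read from the values. The genome build is not given in the sources used here. Probe sets were named through the platform's gene table and gene names through synonyms in RefSeq's table of the assembly ASM3414082v1, so names can be old. Probe sets with several genes (95) or none listed (34663) were tested but not named. A model of 4 group means was fitted to log2(intensity + 1) with limma 3.58.1 in R 4.3.3, with 12 residual degrees of freedom, and p-values were adjusted over all 57194 tested probe sets. On simulated data for the pooled contrast over these probe sets, 22.4%, 46.3% and 54.5% of planted changes of 0.5, 1 and 2 were recovered, with 9 false calls. In the same data 38 probe sets without a planted change were called outside the parents for the aromatic bulk. The simulation drew independent noise around bulks set at mid-parent. It therefore held no group differences in controls and no variation between lines, and cannot measure false calls from these.

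The comparison, the 36 gene lists and the 5 marker lists were chosen with earlier results of these data known. The rule for named genes took the 12 largest rises and falls with a published name and the 4 largest without, among called genes whose bulk and parent arrays did not overlap and with a group mean of at least 100. It added the 6 genes furthest above and below both parents for each bulk and the 4 lowest adjusted p-values of each list. It chose 172 genes, of which 83 are named, 6 CESA genes were added, and the genes dim in both parents were named by level. Alternatives were another pseudocount, a filter on dim probe sets, the linear scale, other normalizations, a variance trend, the replicate block, probe set means, and leaving out each array. No sequences were used here.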

Additional observations from a re-analysis of the deposited data

Results flagged for a closer look

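Single arrays set apart from the other 3 of their group were sought in the 89 named genes by Dixon's criterion at the 95% level, and 29 of 356 groups of 4 held one, where chance gives about 1 in 20. In the aromatic bulk, replicate 1 stood apart at 27340 for BURP2, 8143 for PSAG and 1154 for SAP16. Replicate 2 stood apart at 4101 for SPL15, 12870 for GI, 1698 for RR2 and 691 for FTSH6, replicate 3 at 269 for CESA4 and 131 for CYP701A9, and replicate 4 at 40.0 for LOC4344941. In the non-aromatic bulk, replicate 1 stood apart at 1100 for RR2 and 2127 for LOC4340976, replicate 2 at 87.2 for CESA2, replicate 3 at 1489 for CYP99A3, and replicate 4 at 5029 for RPS26 and 12990 for ADC1. In the aromatic parent, replicate 2 stood apart at 599.5 for CESA8, 24700 for PIP2-7, 1144 for salT, 13.6 for LOC4350773 and 25.7 for LOC4340976, and replicate 4 at 48.9 for LAC4 and 749.7 for RR2. In the non-aromatic parent, replicate 1 stood apart at 45120 for RCAA1, replicate 2 at 1127 for PIP2-4 and 14.6 for LOC4350773, and replicate 4 at 153.5 for BC1 (LOC4333114), 2204 for R1623 and 42.9 for LOC4340998.

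In 3 named genes the bulks departed from mid-parent in opposite directions, each past the threshold, and the difference between the bulks passed as well. The aromatic minus non-aromatic bulk difference on the log2 scale was 5.82 for BURP2 (limma adjusted p = 2.86e-10), 5.87 for LIS (adjusted p = 2.37e-07) and -1.92 for Cht-1 (adjusted p = 8.23e-08).

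The poly-A control probe sets, which are no rice transcripts, differed between groups on the log2 scale, by 0.884 between the aromatic and the non-aromatic parent and by -0.903 between the aromatic and the non-aromatic bulk. Their part in the results was not tested.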

How the results depend on the processing

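With calls required to be at least 2-fold, the pooled contrast had 3558 probe sets and 1084 genes. The aromatic bulk was then outside the parents in 1070 and the non-aromatic bulk in 1749 probe sets, and 3449 and 4907 passed against mid-parent. Called in both of a pair of comparisons without shared arrays, 3494 probe sets passed in the same direction with bulk and parent of like scent and 2991 with like poly-A level. BURP2, MADS56 and EIL1 (LOC4332697) turned on the linear scale, to 1953, -1139 and -475. Each of 5 other settings, namely a pseudocount of 16, a mean of at least 100, a variance trend with robust estimation, median centring and quantile normalization, changed the pooled count to between 13728 and 15251 probe sets, and the linear scale gave 15899.

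Leaving out single arrays gave 12777 to 13308 probe sets and 6672 to 6902 genes. The aromatic bulk was then outside the parents in 3556 to 4163 and the non-aromatic bulk in 5392 to 5893 probe sets, with 9889 to 11700 and 12791 to 14051 past the threshold against mid-parent. Replicate numbers did not pair the arrays (correlation of deviations -0.03 to 0.03, and 6 of 16 arrays closest to their own number). With replicate number as a block, 12927 probe sets and 6648 genes passed, 3730 and 5527 probe sets had a bulk outside the parents, and 10689 and 13436 passed for each bulk against mid-parent. Of 39 further probe sets of the named genes, 23 passed in the same direction and 16 did not pass. With 4 arrays per group, the number of arrays limits the precision, most of all in dim probe sets.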

Other observations

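Several groups of genes not described above had rises and falls side by side, to be read against 20.7% of all genes higher and 19.3% lower. Of 78 genes of calcium sensors and kinases 24 rose (30.8%) and 13 fell (16.7%), with a median log2 difference of 0.13, and of 42 genes of iron and metal transport 13 rose (31.0%) and 8 fell (19.0%), with a median of 0.17. Of 30 cytochrome P450 genes 11 rose (36.7%) and 3 fell (10.0%), or 1 without replicate 4 of the non-aromatic parent. The non-aromatic bulk was above both parents in 10 of the 30, against 8.17% of all genes. Sugar and starch genes had 13 falls (23.6%) and 7 rises (12.7%) among 55. In 8 of the 55 the non-aromatic bulk was below both parents, against 8.79% of all genes. Heat shock genes had 11 rises (23.4%) and 12 falls (25.5%) among 47. Of these, 9 and 11 lay between the parents in the aromatic and the non-aromatic bulk, against 6.99% and 6.91% of all genes. The 55 genes of the cell cycle and DNA replication had 7 rises and 7 falls (12.7% each), and 12 falls when only bright probe sets were tested.

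Genes of nitrogen uptake and assimilation had 7 rises (36.8%) and 4 falls (21.1%) among 19, phosphate genes 4 and 6 among 21, and potassium and sodium transporters 3 and 6 among 24. The 46 stress-related DREB, ERF, NAC, bZIP and MYB factors had 9 rises (19.6%) and 5 falls (10.9%), with 9 falls on the linear scale. Expansins, which loosen cell walls, had 6 rises (20.7%) and 1 fall (3.45%) among 29, with 4 falls on the linear scale and 2 without replicate 2 or 4 of the non-aromatic bulk or replicate 4 of the non-aromatic parent. Lipoxygenase and oxylipin genes had 5 rises and 4 falls among 19, and chlorophyll genes 5 and 4 among 14. Ethylene genes had 3 rises and 4 falls among 11, with 7 falls on the linear scale. Lists of under 10 genes had 0 to 4 rises and 0 to 3 falls each, the clock apart.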
